A study of Mus musculus with 6 samples.

Results

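The CC chemokines described here are Ccl2, Ccl3, Ccl4, Ccl5, Ccl6, Ccl7, Ccl9, Ccl17, Ccl20 and Ccl22, 10 mouse genes for small secreted proteins. They were represented by every probe of the array whose annotation gives one of these symbols and no other, which came to 22 of 16281 probes. The cells were RAW 264.7, a mouse macrophage line written RAW 264.4 in some of the sample descriptions. Cells cultured for 2 h with LPS at 100 ng/ml and LPS-binding protein (LBP) at 100 pM were compared with untreated cells cultured for 2 h. Each of 6 two-colour arrays carried RNA of both, with the treated RNA in Cy5 on 3 arrays and in Cy3 on the other 3. By label, each orientation has a set 1, a set 2 and a set 3, and no label says that the sets were separate cultures. LPS alone and LBP alone were not analysed here, and a cell line stands in for macrophages of a tissue.

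CC chemokines carry adjacent cysteines near the amino terminus and act through G protein-coupled receptors to draw leukocytes along a gradient. Macrophages that meet endotoxin are a major source of them. Ccl2 and Ccl7 act on monocytes through Ccr2, Ccl3, Ccl4 and Ccl5 on monocytes, macrophages and effector T cells through receptors that include Ccr1 for Ccl3 and Ccl5, and Ccl6 and Ccl9 on myeloid cells through Ccr1. Ccl17 and Ccl22 draw Ccr4-bearing T cells, and Ccl20 draws Ccr6-bearing dendritic cells and lymphocytes.

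All values are log2 ratios of treated over untreated, with the sign turned wherever Cy3 carried the treated RNA. The 2 arrays of a set were averaged, so that n = 3 sets, and SD is the spread between sets. Exact zeros were taken as no measurement. The direction, Cy5 over Cy3, was taken from the channel names as the likely one. It was checked on genes outside the family that LPS is known to induce, where 18 of 18 probes of 11 genes, among them Il1b, Tnf and Cd83, were positive on every array after this turn. Of 9 macrophage marker probes, 2 were higher (Adgre1 and Spi1) and 2 lower (Fcgr3 and Csf1r), and ratios do not show whether a marker is present. Fibroblast, lymphocyte, epithelial and endothelial markers had 3, 5, 3 and 4 such probes, and 0 of each list passed limma's threshold. At an unadjusted p under 0.05 there were 1, 2, 1 and 1. Of all 13224 probes measured on every array, 7.50% were higher past the threshold and 7.45% lower. An unadjusted p under 0.05 was found for 3711 of the 13224, in either direction. The number of arrays limits the precision.

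Of the 22 CC chemokine probes, 12 probes of 7 genes were measured on all 6 arrays, 8 on some arrays and 2 on none. These were 54.5% of the family's probes, against 81.2% of all probes on the array. Limma with Benjamini-Hochberg adjustment over 13224 complete probes found 8 of the 12 higher after LPS and LBP and 0 lower, also 0 lower at an unadjusted p under 0.05. Among all complete probes, 7.50% were higher, 7.45% were lower and 15.0% changed in either direction. At an unadjusted p under 0.05, 3711 of the 13224 changed in either direction. The 8 belonged to Ccl2, Ccl4, Ccl5, Ccl9, Ccl20 and Ccl22, and all 8 were positive on 6 of 6 arrays, as were 9.15% of all complete probes. The plot of values by array shows these probes to the right of 0 in both dye orientations. More cells with the transcript and more transcript per cell cannot be told apart in such bulk RNA.

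**Figure D1:**
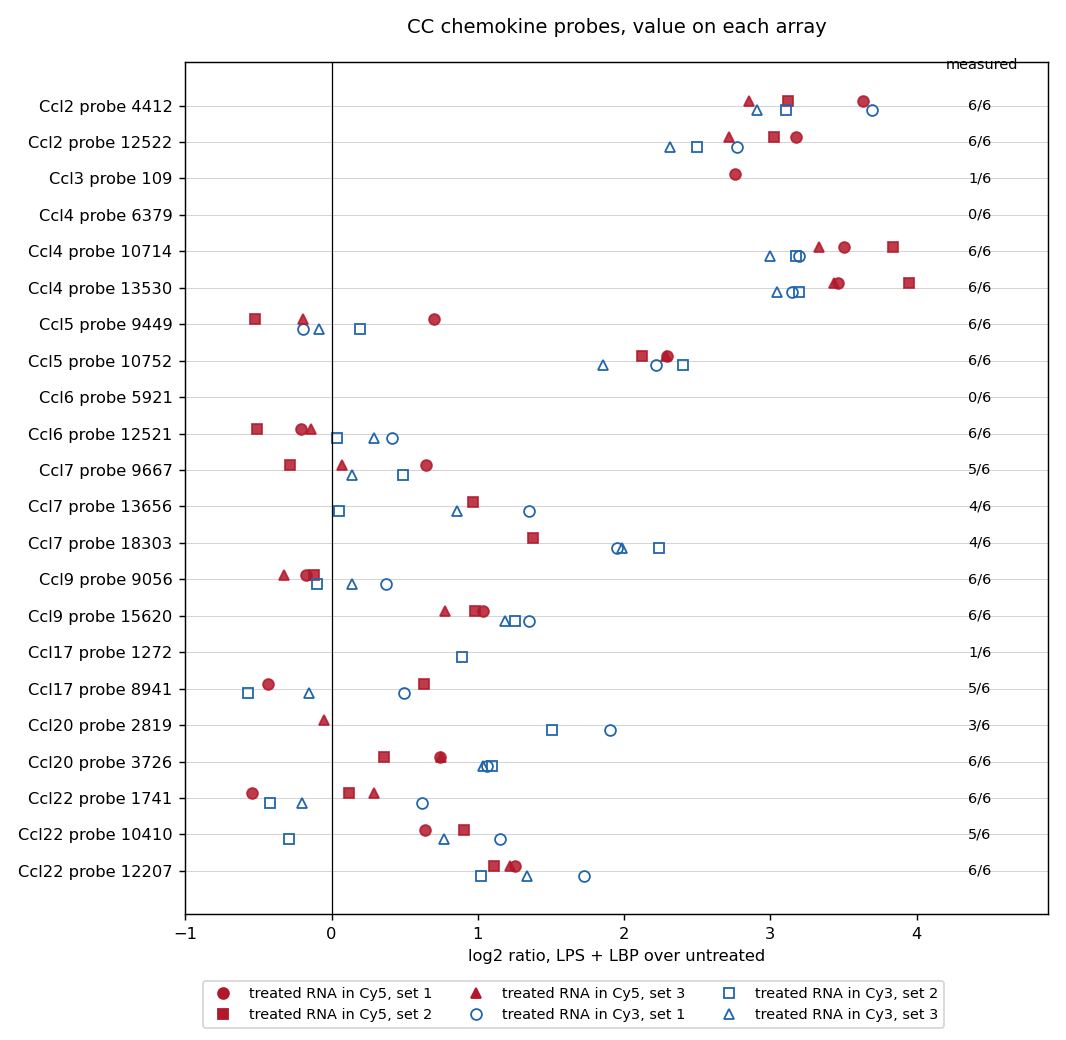
The log2 ratio of LPS and LBP over untreated (x axis) on each array is plotted for the 22 CC chemokine probes (rows), with filled red marks for treated RNA in Cy5, open blue marks for treated RNA in Cy3, a mark shape per set, and the number of arrays measured at the right. The Ccl4 and Ccl2 probes lie furthest to the right, and Ccl3 has 1 point at 2.76.

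Ccl2, the main attractant of monocytes, was among the most raised transcripts of the family. Its probe 4412 gave 3.63, 3.12 and 2.86 in sets 1 to 3 with the treated RNA in Cy5, and 3.70, 3.11 and 2.91 with it in Cy3. The lowest array was at 2.86, and set 1 was the highest in both orientations. The mean was 3.22 ± 0.40 (SD, n = 3 sets), a 9.32-fold rise with limma adjusted p = 2.22e-05 and rank 12 of 13224 probes from the top. The other Ccl2 probe, 12522, gave 3.18, 3.03 and 2.72 with the treated RNA in Cy5 and 2.77, 2.50 and 2.32 with it in Cy3. Set 1 was again the highest. Its mean was 2.75 ± 0.23, or 6.73-fold (adjusted p = 5.94e-06). The probes differed by 0.47 ± 0.19 (limma over 2228 pairs of complete probes of a gene, adjusted p = 0.0466), and 5.12% of all such pairs differed past the threshold. Probe 4412 gave nearly the same value in both dyes, whereas probe 12522 leaned to Cy5 by 0.22 whichever RNA that dye labelled.

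Ccl7, which lies next to Ccl2 on chromosome 11 in the RefSeq annotation of GRCm38.p6 and attracts monocytes through the same receptor, had 3 probes, none of them measured on all arrays. Probe 18303 had no value on the Cy5 arrays of sets 1 and 3. Its values were 1.38 on the remaining Cy5 array and 1.95, 2.24 and 1.99 on the Cy3 arrays. All 4 were positive. A limma fit to single arrays with a dye term, which allows missing values, gave 1.72 (95% interval 1.49 to 1.95, 3.29-fold, adjusted p = 0.00088), and 7.04% of the 14629 probes in that fit were higher. That estimate rests on 1 Cy5 value, treats the 2 arrays of set 2 as separate, and has both orientations in set 2 alone (set mean 1.81), unlike the calls on 3 sets. Probe 13656, missing on the same 2 arrays, gave 0.96 and then 1.35, 0.05 and 0.86, with an estimate of 0.86 that did not pass (95% interval 0.12 to 1.59, adjusted p = 0.142). Probe 9667 was missing on the Cy3 array of set 1 and gave 0.64, -0.28 and 0.07 with the treated RNA in Cy5 and 0.49 and 0.14 with it in Cy3. It was negative on 1 of 5 arrays, with an estimate of 0.23 (95% interval -0.15 to 0.60, adjusted p = 0.449). The 3 estimates of Ccl7 therefore ran from 0.23 to 1.72, and only that of probe 18303 passed.

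Ccl4, an attractant of monocytes and T cells, had the highest means of the family, and its probes gave nearly the same values. Probe 13530 stood at 3.46, 3.95 and 3.44 with the treated RNA in Cy5 and at 3.15, 3.20 and 3.05 with it in Cy3. Probe 10714 stood at 3.50, 3.84 and 3.33, and at 3.20, 3.17 and 3.00. Set 2 was the highest with the treated RNA in Cy5 for both probes. The means were 3.37 ± 0.17 (10.4-fold) and 3.34 ± 0.17 (10.1-fold), each with adjusted p = 2.13e-06, at ranks 10 and 11. The difference between the probes was -0.03 ± 0.07 (10714 minus 13530, adjusted p = 0.876). Both leaned to Cy5, by 0.24 and 0.22, and the Cy5 and Cy3 arrays did not overlap for either. Another Ccl4 probe, 6379, had no value on any array.

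Ccl3, a ligand of Ccr1 and the neighbour of Ccl4 on chromosome 11, had 1 probe. It had a value on 1 of 6 arrays, 2.76 on the Cy5 array of set 1, which has no replicate check. No swapped array had a value, so its dye lean is unknown. Whether the missing values mark bright, dim or rejected spots was not tested. Over the array a missing value was found for 4.76% of the 63 probes with an estimate over 2 in the dye-term fit and for 9.80% of the 14055 with an estimate between -0.5 and 0.5. That count covers probes with at least 4 arrays and both orientations, which leaves out Ccl3.

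Ccl5, which attracts T cells and monocytes, gave different values on its probes. Probe 10752 stood at 2.29, 2.12 and 2.29 with the treated RNA in Cy5 and at 2.22, 2.40 and 1.86 with it in Cy3. The orientations overlapped, and the mean was 2.20 ± 0.11 (4.58-fold, adjusted p = 3.4e-06, rank 45). Probe 9449 stood at 0.70, -0.52 and -0.20, and at -0.19, 0.20 and -0.09. It was positive on 2 of 6 arrays, with a mean of -0.02 ± 0.24 (95% interval -0.23 to 0.20, adjusted p = 0.928). The difference, 9449 minus 10752, was -2.21 ± 0.21 (adjusted p = 0.000426), and 0.0898% of the 2228 probe pairs differed by as much. That share is over pairs of all genes, raised or not, and 15.0% of all complete probes changed in either direction. A mean over both probes puts Ccl5 at 1.09 (2.13-fold), a value that neither probe gave.

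Ccl9 and Ccl6 are mouse ligands of Ccr1 that are neighbours on chromosome 11. Ccl9 probe 15620 stood at 1.03, 0.98 and 0.77 with the treated RNA in Cy5 and at 1.35, 1.25 and 1.18 with it in Cy3. All arrays were positive, and the Cy3 arrays lay above the Cy5 arrays. The mean was 1.10 ± 0.11 (2.14-fold, adjusted p = 6.22e-05, rank 150). Ccl9 probe 9056 stood at -0.17, -0.12 and -0.33, and at 0.37, -0.10 and 0.14. Before the signs were turned it leaned to Cy3 by 0.17 on average, and its mean was -0.03 ± 0.12 (95% interval -0.18 to 0.11, adjusted p = 0.768). The probes differed by -1.13 ± 0.08 (9056 minus 15620, adjusted p = 0.000556). For Ccl6, probe 5921 had no value on any array, and probe 12521 stood at -0.21, -0.51 and -0.14 with the treated RNA in Cy5 and at 0.41, 0.04 and 0.29 with it in Cy3. These groups did not overlap and lay on either side of 0. As deposited, all 6 ratios leaned to Cy3, with a mean of -0.27, and 7.07% of complete probes leaned as far to either dye. The treatment part was -0.02 ± 0.19 (95% interval -0.20 to 0.16, adjusted p = 0.9), so Ccl6 did not pass.

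The 250 bases before the transcription start are shown for Ccl9 and Ccl6, because 1 of 2 complete probes of Ccl9 passed and the 1 of its neighbour Ccl6 did not. The RefSeq promoter table (GRCm38.p6) held 6 of the 10 genes. Ccl2, Ccl4, Ccl5 and Ccl7 are not shown. Capitals mark matches on either strand to GGGNNNTTCC, a form of the NF-κB motif found in 4.65% of 32851 promoter windows of this length, and to TGANTCA, a form of the AP-1 motif found in 6.75%. In Ccl9 (chr11:83578637-83578886, minus strand) the AP-1 form lay 53 to 47 bases before the start, matched on both strands since the form is its own reverse complement, and the NF-κB form 35 to 26 bases before it on the opposite strand. In Ccl6 (chr11:83593088-83593337, minus strand) these letters were in neither strand of this window. A match is a description of letters only.
Ccl9: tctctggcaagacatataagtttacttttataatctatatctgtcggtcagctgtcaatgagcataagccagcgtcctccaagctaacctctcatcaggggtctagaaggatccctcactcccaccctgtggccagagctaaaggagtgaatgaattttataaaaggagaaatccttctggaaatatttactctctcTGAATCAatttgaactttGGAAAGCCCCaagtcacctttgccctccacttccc
Ccl6: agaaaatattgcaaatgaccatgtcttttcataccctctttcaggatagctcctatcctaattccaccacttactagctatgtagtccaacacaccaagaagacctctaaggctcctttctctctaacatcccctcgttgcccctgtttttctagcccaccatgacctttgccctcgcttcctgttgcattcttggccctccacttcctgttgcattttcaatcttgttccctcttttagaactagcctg

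Ccl22 and Ccl17, the ligands of Ccr4, lie on either side of Cx3cl1 on chromosome 8. Ccl22 probe 12207 stood at 1.26, 1.11 and 1.22 with the treated RNA in Cy5 and at 1.73, 1.02 and 1.34 with it in Cy3. Set 1 gave the highest value in each orientation, and the orientations overlapped. The mean was 1.28 ± 0.21 (2.43-fold, adjusted p = 0.000156, rank 131). Ccl22 probe 1741 stood at -0.54, 0.12 and 0.29, and at 0.62, -0.42 and -0.20. As deposited its ratios followed the channels set by set, leaning by -0.58, 0.27 and 0.25 in sets 1 to 3, and the treatment part was -0.02 ± 0.11 (95% interval -0.16 to 0.12, adjusted p = 0.842). The probes differed by -1.30 ± 0.13 (1741 minus 12207, adjusted p = 0.000556). Ccl22 probe 10410, missing on the Cy5 array of set 3, stood at 0.64 and 0.90, and at 1.15, -0.29 and 0.77. It was positive on 4 of 5 arrays, and the estimate with a dye term was 0.66 (95% interval 0.10 to 1.22, adjusted p = 0.134).

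Ccl17 had no probe on all arrays. Probe 8941, missing on the Cy5 array of set 3, stood at -0.43 and 0.63 with the treated RNA in Cy5 and at 0.49, -0.57 and -0.15 with it in Cy3. Like Ccl22 probe 1741 it followed the channels, with a lean of -0.46 in set 1 and 0.60 in set 2, which left 0.03 in each of these sets after averaging. Its estimate with a dye term was 0.01 (95% interval -0.55 to 0.57, adjusted p = 0.99). Ccl17 probe 1272 had a value on 1 array only, 0.89 on the Cy3 array of set 2. No Ccl17 probe passed a test.

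Ccl20 had the smallest rise among the probes that passed. Probe 3726 stood at 0.74, 0.36 and 0.75 with the treated RNA in Cy5 and at 1.06, 1.10 and 1.04 with it in Cy3. Every Cy3 array lay above every Cy5 array, a lean to Cy3 of 0.23. The mean was 0.84 ± 0.10 (1.79-fold, adjusted p = 0.000178, rank 213). With only the Cy5 arrays it was 0.62 and limma's adjusted p was 0.0518. Ccl20 probe 2819 had 3 values, -0.05 on the Cy5 array of set 3 and 1.90 and 1.5 on the Cy3 arrays of sets 1 and 2. No set had both orientations, and the Cy5 and Cy3 values did not overlap.

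The promoter windows of Ccl20 (chr1:83116516-83116765, plus strand) and Ccl22 (chr8:94745434-94745683, plus strand) are shown as those of the other raised genes in the table. In Ccl20 the capitals mark a match to GGGNNNTTCC on the opposite strand, 80 to 71 bases before the start. The wider form GGGNNNNNCC fits there too and has 3 more matches, shifted by 1 or 2 bases. In Ccl22 there was no such match, and the capitals mark 2 matches on the opposite strand to the wider form GGGNNNNNCC, which 45.8% of all windows hold, at 162 to 153 and 131 to 122 bases before the start. Neither window held TGANTCA. The Ccl3 and Ccl17 windows held none of the 3 forms.
Ccl20: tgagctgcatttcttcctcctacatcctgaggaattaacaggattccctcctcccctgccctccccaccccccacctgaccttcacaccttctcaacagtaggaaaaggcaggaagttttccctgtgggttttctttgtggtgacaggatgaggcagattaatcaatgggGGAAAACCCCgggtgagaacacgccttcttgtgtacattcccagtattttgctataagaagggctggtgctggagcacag
Ccl22: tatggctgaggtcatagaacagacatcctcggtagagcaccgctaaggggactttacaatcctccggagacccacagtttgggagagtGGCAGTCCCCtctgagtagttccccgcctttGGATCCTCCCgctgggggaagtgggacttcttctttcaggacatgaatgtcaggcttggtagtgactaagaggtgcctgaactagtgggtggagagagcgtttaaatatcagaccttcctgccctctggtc

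**Figure D2:**
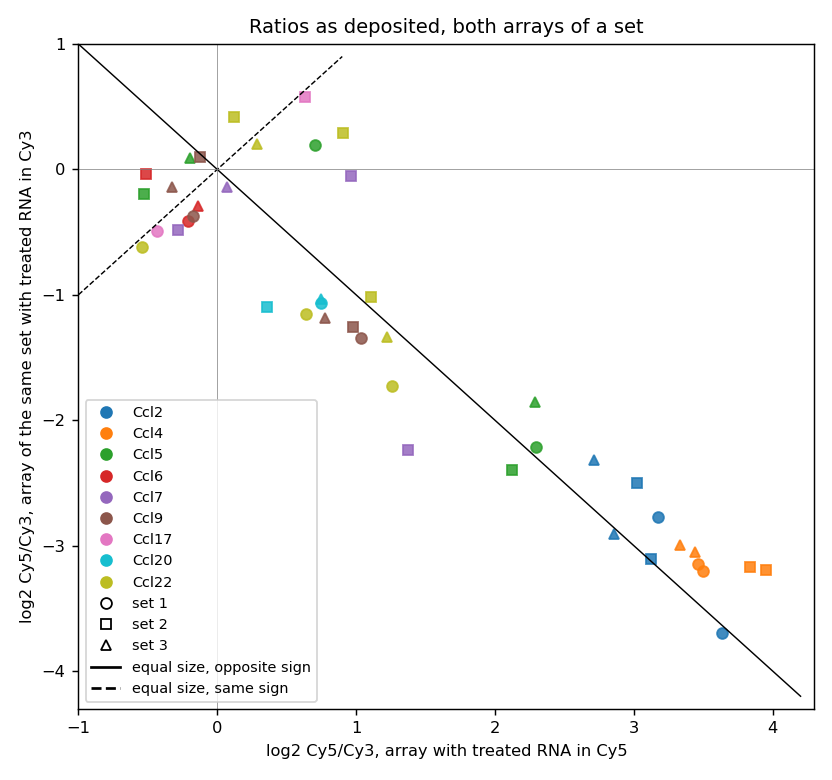
Each point is a CC chemokine probe in a set, with the deposited log2 Cy5/Cy3 ratio of the array with treated RNA in Cy5 (x axis) against that of the array with treated RNA in Cy3 (y axis), coloured by gene and shaped by set. Points on the solid line have equal size and opposite sign, as Ccl2 probe 4412 nearly does, and points on the dashed line have equal size and the same sign, as the Ccl17 point of set 2 (0.63 and 0.57) nearly does.

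The plot of ratios as deposited separates what followed the RNA from what followed the dye. Dye lean, the mean of both orientations before any sign was turned, ranged from -0.27 for Ccl6 probe 12521 to 0.24 for Ccl4 probe 13530 among the 12 complete probes. Each of the 8 raised probes had a lean smaller than its treatment part, the closest being Ccl20 at -0.23 against 0.84. Ccl6 probe 12521 and Ccl9 probe 9056 had leans (-0.27 and -0.17) larger than their treatment parts of -0.02 and -0.03. In set 1, Ccl5 probe 9449 leaned to Cy5 by 0.45, and in set 2 to Cy3, by -0.36.

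Ordered by mean, the complete probes ran from Ccl4 (3.37 and 3.34) through Ccl2 (3.22 and 2.75), Ccl5 probe 10752 (2.20), Ccl22 probe 12207 (1.28) and Ccl9 probe 15620 (1.10) to Ccl20 (0.84). The values of the 3 sets overlapped between the Ccl4 probes, between Ccl4 probe 10714 and Ccl2 probe 4412, between the Ccl2 probes, and between Ccl22 and Ccl9. They did not overlap between Ccl2 probe 12522 and Ccl5, between Ccl5 and Ccl22, between Ccl9 and Ccl20, or between Ccl20 and the next probe. The last 4, of Ccl5, Ccl6, Ccl22 and Ccl9, lay between -0.02 and -0.03 and overlapped with their neighbours. Ratios of different probes depend on each probe's own hybridization, so this order is one of probes.

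**Figure D3:**
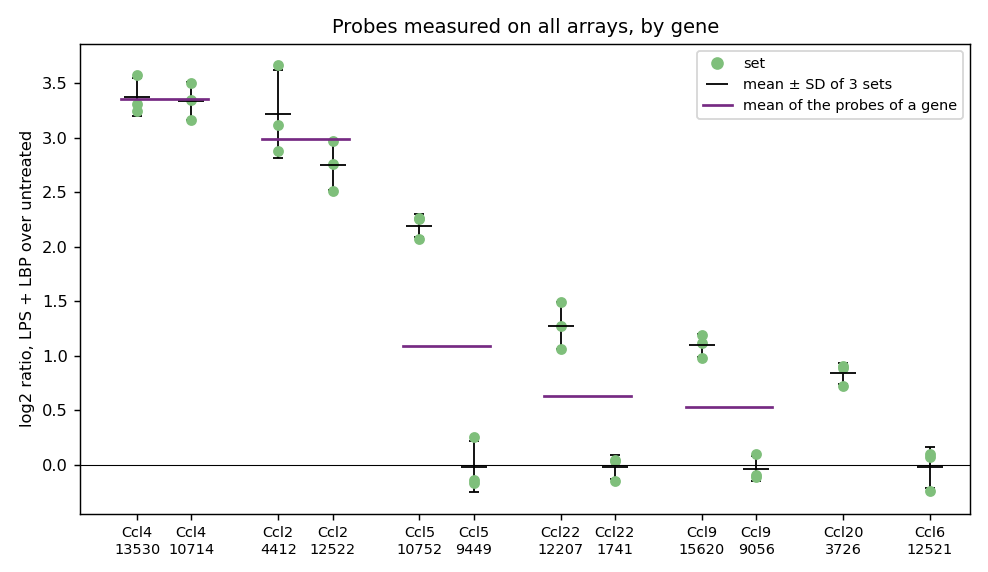
Mean log2 ratio of LPS and LBP over untreated (y axis) for the 12 CC chemokine probes measured on all arrays, grouped by gene, with 1 point per set, a bar for the mean ± SD of 3 sets and a purple line for the mean of a gene's probes. The probes of Ccl4 lie together at 3.37 and 3.34, while those of Ccl5 lie at 2.20 and -0.02.

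With the probes of a gene averaged, 6 of the 7 genes with complete probes passed, all higher, where 7.35% of 11231 features were higher. The averaged values were 1.09 for Ccl5, 0.63 for Ccl22 and 0.53 for Ccl9, each about midway between a raised probe and a probe near 0. The median distance between complete probes of a gene over all 2228 pairs was 0.07. Of the 5 pairs within this family, 4 passed the test of a difference, those of Ccl2, Ccl5, Ccl9 and Ccl22. Over all 2228 pairs 5.12% passed, a share that covers genes raised or not. Which parts of the transcripts the probes cover was not analysed here.

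Along the chromosomes, probes that passed and probes that did not were found within the same runs of genes. In the run Ccl2, Ccl7, Ccl11, Ccl12, Ccl8 and Ccl1 on chromosome 11, Ccl2 rose and a Ccl7 probe passed, while Ccl11, Ccl12, Ccl8 and Ccl1 had complete probes between -0.04 and 0.16 and did not pass. In the run Ccl5, Ccl9, Ccl6, Ccl3 and Ccl4 on the same chromosome, the single complete Ccl6 probe at -0.02 lay between Ccl9, whose probes stood at 1.10 and -0.03, and Ccl3, whose only value was 2.76. The differences between Ccl6 and Ccl9 were not tested. On chromosome 8, Cx3cl1, a membrane-bound chemokine gene, had probes at 0.00 and 0.08 that did not pass (adjusted p = 0.491 for the higher), between Ccl22 and Ccl17. Ccl20 lies alone on chromosome 1.

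**Figure D4:**
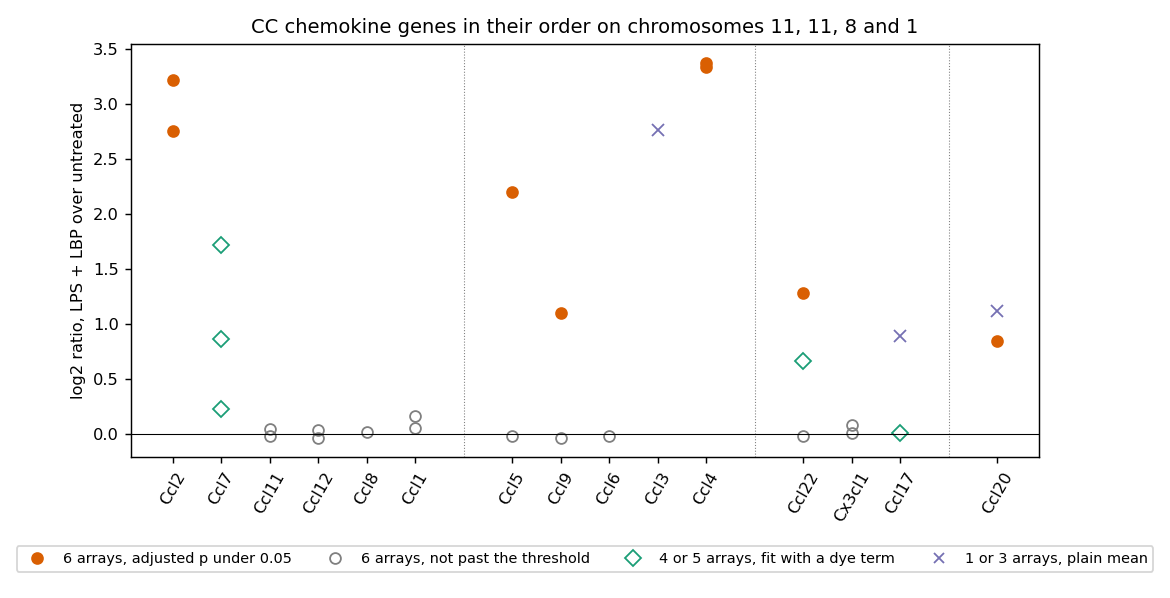
Log2 ratio of LPS and LBP over untreated (y axis) of each measured probe, with the genes along the x axis in RefSeq order (GRCm38.p6) in runs parted by dotted lines. Filled points are complete probes past the threshold, open circles complete probes that did not pass, diamonds probes with 4 or 5 arrays, and crosses plain means over 1 or 3 arrays. Ccl11, Ccl12, Ccl8 and Ccl1 lie near 0 beside Ccl2 and Ccl7.

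The complete probes of the remaining CC chemokines had means between -0.31 and 0.16. Of their 3 incomplete probes, Ccl21b gave -0.13 (5 arrays, adjusted p = 0.505) and Ccl27a 0.27 (4 arrays, adjusted p = 0.118) in the dye-term fit, and a Ccl8 probe had no value. Of the 18 complete probes of 11 genes, 0 were higher by limma (1 at an unadjusted p under 0.05) and 1 was lower. That was a probe of Ccl19, which guides Ccr7-bearing dendritic cells and T cells, at -0.31 ± 0.03 (adjusted p = 0.00643, positive on 0 of 6 arrays). The other Ccl19 probe stood at 0.05 ± 0.25 (adjusted p = 0.795). The median of this list was 0.03, against 1.19 for the 12 complete probes above and -0.00 for all complete probes. Over all complete probes 7.50% were higher and 7.45% lower, shares that apply to this list and the next. At an unadjusted p under 0.05, 3711 of the 13224 complete probes changed in either direction. Other chemokine classes had 4 of 20 complete probes higher and 1 lower, with a median of -0.01. Among these complete probes Cxcl10 led at 3.70 ± 0.26 (adjusted p = 3.19e-06), followed by Cxcl11 (2.14), Cxcl16 (1.14) and Xcl1 (0.68), and the lower probe was of Cxcl15 (-0.20 ± 0.05, adjusted p = 0.0377). Another Cxcl15 probe stood at -0.16 (adjusted p = 0.162), and 0 probes of this list were lower without set 2, without set 3 or with gene means, against 2 without set 1. An incomplete probe of Cxcl2 lay above Cxcl10, at 4.81 in the dye-term fit (5 arrays, adjusted p = 4.24e-05). Another Xcl1 probe stood at -0.02.

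Receptors of CC chemokines had 3 of 24 complete probes higher and 0 lower by limma, against 7.50% and 7.45% of all complete probes. This list also counts Cmklr1, which is not a receptor of CC chemokines and did not pass (-0.08 and -0.02). At an unadjusted p under 0.05, 4 receptor probes were higher and 2 lower, against 3711 of all 13224 complete probes in either direction. The median of the receptor probes was 0.01. The 3 higher ones were single probes of Ccr9 (1.81 ± 0.14), Ackr1 (0.57 ± 0.06, adjusted p = 0.000635) and Ccr10 (0.26 ± 0.04, adjusted p = 0.0134, positive on 5 of 6 arrays). Ccr9 is a gut-homing and Ccr10 a skin-homing receptor of lymphocytes, and Ackr1 is an atypical receptor. Other probes of these genes did not pass, at 0.06 and -0.07 for Ccr9, 0.08 for Ackr1, and 0.17 and 0.03 for Ccr10. Ccr1, Ccr4 and Ccr6, receptors of ligands described here, did not pass on any complete probe. Ccr1 stood at -0.03 and 0.06, Ccr4 at -0.02 and 0.00, and Ccr6 at -0.17 and -0.16. Ccr2 had 2 incomplete probes, at -0.22 (4 arrays, adjusted p = 0.121) and -0.16 (5 arrays, adjusted p = 0.317) in the dye-term fit.

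Genes that carry or limit chemokine receptor signals had 7 of 29 complete probes higher and 2 lower, against 7.50% and 7.45% of all complete probes. The median of this list was 0.03. Rgs1, which shortens G protein signals, rose on both probes (1.30 each), as did the kinase gene Jak2 (1.10 and 1.08). Prkcd, a protein kinase C gene, rose on 3 probes (0.31, 0.31 and 0.37). Pik3cg, the phosphoinositide kinase gene coupled to chemokine receptors, fell on both probes (-0.42 ± 0.01 with adjusted p = 0.00176, and -0.40 ± 0.05 with adjusted p = 0.00274). The plot by list shows these probes beside those of the ligands.

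**Figure D5:**
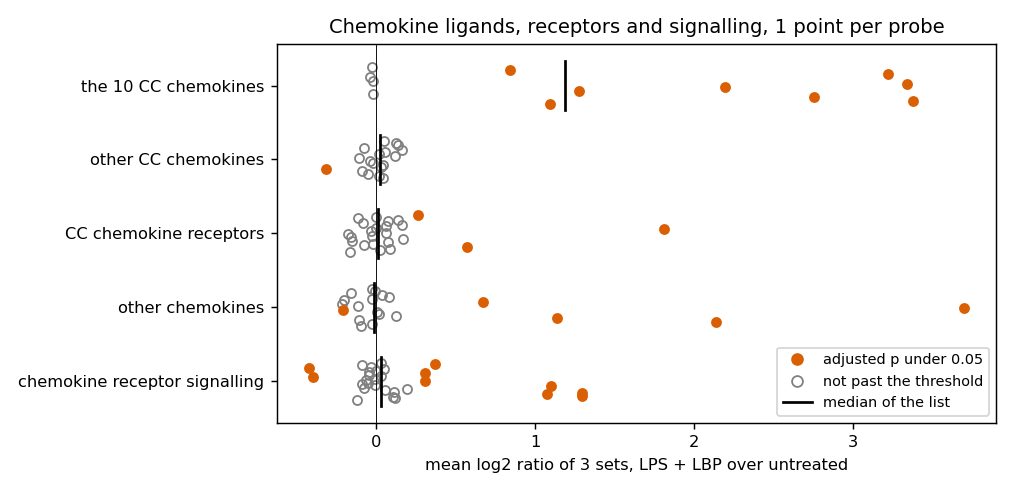
Mean log2 ratio of 3 sets, LPS and LBP over untreated (x axis), for every complete probe of 5 gene lists (rows), with filled points past an adjusted p of 0.05, open points not past it and a bar at the median. The bar of the row named for the 10 CC chemokines lies at 1.19 and covers the 12 complete probes, which belong to 7 of these genes. Those of the other 4 lists lie between -0.01 and 0.03.

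The nearest pattern over the 6 arrays was sought for the most changed complete probe of each gene among 11453 probes of other named genes, by root mean square difference of the turned ratios. The nearest to Ccl4 was Pim1 (difference 0.26), to Ccl2 Phlda1 (0.39) and to Ccl5 Tnfaip2 (0.16). Jak2 came nearest to Ccl9 (0.10), Fscn1 to Ccl20 (0.15) and Phxr4 to Ccl22 (0.18). For Ccl2 and Ccl4 0 probes came within 0.25, against 5 for Ccl5, 8 for Ccl22, 22 for Ccl9 and 36 for Ccl20. Ccl6, near 0, had 867 probes within 0.25, with Itgb2l the nearest (0.09). The ratios were not scaled, so these counts depend on how many probes had a similar mean. Few had means as high as those of Ccl4 and Ccl2, at ranks 10 and 12 from the top. The arrays share their dyes and RNA, and many probes were compared.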

How the data were processed

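Per the labels, total RNA was labelled with Cy3 and Cy5 on 2-colour arrays. The authors deposited 1 log2 ratio per probe and array for 16281 probes. The base was inferred: 87.3% to 92.8% of an array's non-zero ratios became numbers of 7 decimals on conversion to log10 (tolerance 0.001 of the last). How background and dyes were corrected is not given in the sources used here. Spot intensities were not used, and array medians lay between 0.00 and 0.02.

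Probes were named through the platform annotation (22 of 22 symbols matched RefSeq of GRCm38.p6 by gene ID). Limma 3.58.1 (two-sided moderated test in R 4.3.3, with 4.50 prior degrees of freedom) tested the 3 set means of each probe measured on 6 arrays, with Benjamini-Hochberg adjustment and a threshold of 0.05. Probes with at least 4 arrays and both orientations were also fitted on single arrays with a dye term. Arrays were paired by the labels' set numbers. Before signs were turned, same-numbered arrays deviated together with r of 0.41, 0.45 and 0.15 across probes. Between arrays of different numbers r ran from -0.43 to 0.04. Deviating together before turning follows the dye channel, so these r do not show that a set was 1 replicate of the treatment. P-values from set means measure only the spread between sets, which may be technical. Those of the dye-term fit measure the spread between single arrays and count arrays of the same set as separate. That spread may be technical too. Scripts were tested on simulated data.

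Every probe of the 10 genes is named. Of each further list up to 5 genes with the largest absolute mean past the threshold are named, plus the receptors Ccr1, Ccr2, Ccr4 and Ccr6. The genes, lists and motifs were chosen with earlier results of these data known. The test between probes of a gene was chosen after seeing the data.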

Additional observations from a re-analysis of the deposited data

How the results depend on the processing

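The count of 8 higher and 0 lower CC chemokine probes was 8 and 0 without any set or any single array, with the replicate block (set as a random block on the 6 arrays) and with no block. It was 6 genes with gene means, 9 with missing values allowed, 11 with exact zeros kept as 0, 7 on the Cy5 arrays alone and 7 against a 1.5-fold change, with 0 lower in each. Allowing missing values or keeping zeros also brought in incomplete probes, so the 9 and 11 are not out of the same probes as the 8. Over all probes tested, these settings gave 1030 and 875 higher, against 992 in the main fit. Ccl20 probe 3726 was the one of the 8 that lost its call, at 0.62 (adjusted p = 0.0518) on the Cy5 arrays and adjusted p = 0.093 against 1.5-fold, within a range of 4.4e-07 to 0.093 over 21 alternatives. Gene means turned the sign of the unraised probes to 1.09 for Ccl5 probe 9449, 0.53 for Ccl9 probe 9056 and 0.63 for Ccl22 probe 1741, since they include the raised probe.

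Over all complete probes, 992 were higher and 985 lower. These became 432 and 375 with only the Cy5 arrays, 519 and 299 with only the Cy3 arrays, 177 and 26 against 1.5-fold, and 428 to 1032 higher and 210 to 954 lower without a set or an array. Leaving out set 1 gave 660 and 515, set 3 gave 443 and 258, the Cy5 arrays of sets 1 and 2 gave 661 and 527, and 428 and 210, and the Cy3 arrays of sets 1 and 2 gave 546 and 402, and 464 and 365. The replicate block, with a correlation of -0.44 within sets, gave 1268 and 1337. Without a set, the counts ran from 0 (set 3) to 1 lower for other CC chemokines, 2 to 5 (set 2) higher for receptors, 0 (sets 2 and 3) to 2 (set 1) lower for other chemokines, and 4 (set 3) to 7 higher for signalling. Gene means gave 0 lower for other CC chemokines, 0 lower for other chemokines, and 4 higher and 1 lower for signalling. The causes were not tested. Signal over background is unknown, which limits what the missing values of Ccl3, Ccl7, Ccl17 and Ccl20 can show.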

Other observations

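Outside the family, 18 probes of other CC chemokines, other chemokines and CC chemokine receptors were incomplete, and 11 of them had enough arrays for the dye-term fit. In it 4 were higher, 0 lower and 7 did not pass, where 7.04% of all 14629 probes were higher and 7.04% lower. That fit counts the 2 arrays of a set as separate. The 4 are named here after their values were seen, with further probes of their genes. Those of Ccrl2 and Cxcl11 among the 4 had no value in set 1, so their estimates rest on sets 2 and 3. The 7 were of Cxcl12 (0.01), Cxcl5 (0.05), Ccl21b (-0.13), Ccl27a (0.27) and Ccrl2 (-0.14), and 2 of Ccr2 (-0.22 and -0.16). Cxcl2, which attracts neutrophils, had a probe at 5.25, 6.09 and 5.25 with the treated RNA in Cy5 and at 4.14 and 4.04 with it in Cy3, missing on the Cy3 array of set 1. The estimate with a dye term was 4.81 (95% interval 4.44 to 5.17, limma adjusted p = 4.24e-05), with a lean to Cy5 of 0.72. Another Cxcl2 probe had values in set 1 only, -2.94 and 2.76, of opposite sign after turning. Ccrl2, an atypical receptor that binds chemerin, had a probe at 1.20 and 1.54 with the treated RNA in Cy5 and at 2.20 and 1.29 with it in Cy3, missing on both arrays of set 1. Its estimate was 1.56 (95% interval 1.08 to 2.04, adjusted p = 0.00992), while another Ccrl2 probe, measured on 5 arrays, gave -0.14 (adjusted p = 0.263). An incomplete Cxcl11 probe gave 0.71 (4 arrays, adjusted p = 0.0119), against 2.14 on the complete one, and an incomplete Cxcl10 probe gave 3.74 (5 arrays, adjusted p = 0.000138), close to 3.70 on the complete one.

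In sets 1 to 3, 16, 17 and 14 of the 22 CC chemokine probes had a value where Cy5 carried the treated RNA, and 17, 19 and 17 where Cy3 did. Among all probes the share at exact zero also varied, between 9.12% and 12.4% of an array, and was lowest in set 2 in both orientations.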
